A study of Mus musculus with 4 samples.

Results

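Irx1, Irx2, Irx3, Irx5, Sall1, Sall3 and Sall4 were followed in forelimbs and hindlimbs of the mouse embryo, as 7 genes among the 26252 genes and clusters to which sequence tags had been assigned. Members were chosen by Ensembl gene identifier, and the counts of every tag that the deposited table gave to that identifier were summed. These 7 genes held 34 of the 733961 tags in the table. Limbs were dissected from CD1 embryos at E14.5, and each limb type, forelimb or hindlimb, was represented by 2 biological replicates, so 4 libraries were compared. The labels name no mutation, transgene or treatment in either group. Nor do they say whether a sample held limbs of more than 1 embryo, or whether a forelimb and a hindlimb with the same replicate number came from the same animals. The p-values rest on the spread between these samples, with the estimate of spread shared in part over all genes or tags tested.

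Irx proteins are homeodomain transcription factors of the TALE class, and their genes lie in a pair of clusters, with Irx1, Irx2 and Irx4 in one and Irx3, Irx5 and Irx6 in the other. In the mouse limb, Irx3 and Irx5 are together required for proximal and anterior skeletal elements of the hindlimb, and Irx1 and Irx2 are expressed where digits and joints form. Sall proteins are zinc-finger transcription factors that can repress genes by recruiting the nucleosome remodelling and deacetylase complex, NuRD. Sall1 and Sall3 act together in the limb during development of the hand and foot plate, and Sall4 acts with Tbx5 in the early forelimb.

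Expression was measured by digital gene expression SAGE (DGE-SAGE), in which cDNA is cut by NlaIII at CATG and the bases that follow the cut are counted as a tag. Each tag here has 17 bases, and a transcript should be counted at the CATG nearest its 3′ end, called site 1. Sites further from that end of the same transcript have higher numbers. The tags below are those with at least 20 counts over the 4 libraries that lie in a transcript of a member in GENCODE M21. They are printed because the comparison of limb types differed between tags of the same gene with different base composition. They are written 5′ to 3′ without the CATG, with G and C in capitals, as the strand of the transcript.
Irx5 site 3: GGCGGGCaaaCGCttGG
Irx5 site 4: CCCaCCGtGCCCaGGGC
Irx5 site 1: GCCttGGCaGttatttt
Irx3 site 1: tCtGtGtatGattaCCt
Irx3 site 2: CtGGGCtCGGCCCCaCa
Irx1 site 2: GtGaGaaGGCCtCCGCa
Irx1 site 3: CaGCaCCtCaCGGCCCa
Irx1 site 4: CGatCtttCCtGGGCGt
Irx1 site 5: tatGCCGCGGCGGGaCC
Irx1 site 6: tCCttCCCGCaGCtGGG
Irx2 site 1: GaaGaaaaCaaaataaa
Irx2 site 2: CCCaaGGCGGCCaGCGa
Irx2 site 4 and Irx5 site 6: tCCtaCCCGCaGGGCta
Sall1 site 1: CaCtttCttGGaaaGtt
Sall1 site 2: aaGGCCaaCGaGatCtC
Sall1 site 3: aCatttCtaGGaGGCaa
Sall1 site 4: GGCaCCCatatGtGGaa

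Forelimb replicate 2 was the shallowest library, with 1829647 counts, and the other 3 held 4695786 to 5325279; tags with a gene or cluster made up 81.3% to 85.2% of them. Levels are given as CPM, counts scaled to the TMM-adjusted library size of those tags. A single count equals 0.618 CPM in the shallowest library and 0.222 to 0.255 CPM in the rest. The labels of the limb types were borne out by their best known markers. Tbx5, the forelimb T-box factor, was at 18.3 and 14.8 CPM in the forelimb libraries and 0.889 and 1.51 CPM in the hindlimb libraries. Pitx1, the hindlimb homeodomain factor, was at 3.31 and 1.24 CPM in the forelimb and 253 and 303 CPM in the hindlimb.

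Of the 7 members, 4 had enough counts to be tested, and 1 of them, Irx5, was called as differing between the limb types. The threshold was an adjusted p of 0.05 in edgeR's quasi-likelihood test with Benjamini-Hochberg adjustment over all 13718 genes tested. By the same rule 16.7% of all tested genes were called, 9.58% as higher in the hindlimb and 7.08% as higher in the forelimb. With 4 genes tested, a count of 1 does not set the members apart from that share. All 4 tested members, Irx1, Irx3, Irx5 and Sall1, had both hindlimb libraries above both forelimb libraries, a pattern seen in 31.4% of the tested genes. The 3 other family members in the table, Irx4, Irx6 and Sall2, had it as well.

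Irx5 lies on the plus strand at chr8:92357625-92376286 (GRCm38), in the cluster with Irx3 and Irx6. It gave 80 and 14 counts in the forelimb libraries and 282 and 402 counts in the hindlimb libraries. In CPM it was at 20.4 and 8.65 in the forelimb, 14.51 ± 8.29 (SD, n = 2), and at 62.7 and 101 in the hindlimb, 82.0 ± 27.3 (SD, n = 2). The lower hindlimb library was therefore well above the higher forelimb library. The edgeR log2 fold change of hindlimb over forelimb was 2.42 ± 0.43 (SE), a 5.36-fold difference with an adjusted p of 0.00205 and a 95% interval of 1.52 to 3.33. Leaving out each library in turn gave log2 fold changes of 1.997 to 3.24, with adjusted p from 6.0e-09 to 0.0270 in edgeR. The call was lost in fits with an offset for the base composition of the tags, estimated from these same libraries, as described with the tags below.

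Irx3, the other factor with a known hindlimb role, lies on the minus strand at chr8:91798525-91802067. It gave 14 and 10 counts in the forelimb and 66 and 45 counts in the hindlimb. These are 3.57 and 6.18 CPM, 4.87 ± 1.85 (SD, n = 2), against 14.7 and 11.3 CPM, 13.0 ± 2.35 (SD, n = 2). The groups did not overlap, but the log2 fold change of 1.48 ± 0.61 (SE) did not pass the edgeR test over all genes, with an adjusted p of 0.102 and a 95% interval of 0.20 to 2.76. Irx6, the third gene of this cluster, gave 24 and 12 counts in the forelimb and 61 and 57 counts in the hindlimb. Its log2 fold change was 1.06 ± 0.54 (SE), with an adjusted p of 0.182 in edgeR.

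Irx1 lies on the minus strand at chr13:71957921-71963723, in the cluster with Irx2 and Irx4. It gave 94 and 44 counts in the forelimb and 190 and 215 counts in the hindlimb. In CPM the forelimb libraries were at 23.9 and 27.2, 25.6 ± 2.30 (SD, n = 2), and the hindlimb libraries at 42.2 and 54.2, 48.2 ± 8.46 (SD, n = 2). The groups were apart by more than their own ranges. The log2 fold change was 0.92 ± 0.37 (SE), with a 95% interval of 0.14 to 1.70 and an edgeR adjusted p of 0.0941. It passed the edgeR threshold only where hindlimb replicate 1 was left out, at 1.08 with an adjusted p of 0.0455, out of 15 alternative analyses. Irx4 gave 7 and 8 counts in the forelimb and 38 and 44 counts in the hindlimb, with a log2 fold change of 1.65 ± 0.75 (SE) and an edgeR adjusted p of 0.136.

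Sall1, the zinc-finger repressor with the most counts among the Sall members, lies on the minus strand at chr8:89027235-89044162. It gave 112 and 42 counts in the forelimb and 164 and 184 counts in the hindlimb. In CPM these were 28.5 and 26.0, 27.2 ± 1.82 (SD, n = 2), against 36.5 and 46.4, 41.4 ± 7.02 (SD, n = 2). Both hindlimb libraries were above both forelimb libraries. The edgeR log2 fold change was 0.60 ± 0.37 (SE), with an adjusted p of 0.279 and a 95% interval of -0.18 to 1.38. Sall2, a family gene outside the 7, gave 117 and 46 counts in the forelimb and 204 and 267 counts in the hindlimb, with a log2 fold change of 0.95 ± 0.37 (SE) and an edgeR adjusted p of 0.0839.

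Sall3 and Sall4 had too few counts under their identifiers to be tested. Sall3 (chr18:80966376-80986771, minus strand) gave 0 counts in both forelimb libraries and 1 and 0 counts in the hindlimb libraries. Sall4 (chr2:168748332-168767943, minus strand) gave 0 counts in both forelimb libraries and 2 and 0 counts in the hindlimb libraries. For the tags under each identifier, a count of 0 over the forelimb libraries allows a level of up to 0.541 CPM, taken as 3 counts. The hindlimb level was 0.118 CPM for Sall3, with an exact 95% Poisson interval of 0.00299 to 0.658, and 0.236 CPM for Sall4, with an interval of 0.0286 to 0.854. These intervals cover counting error only. For Sall3 the bound does not hold for the gene as a whole, since a tag that lies in its transcript and was given no gene in the table had 9 and 0 counts in the forelimb and 5 and 4 in the hindlimb. Summed by M21 gene, Sall3 was at 3.01 and 0 CPM in the forelimb and 1.47 and 1.36 CPM in the hindlimb, which overlap, and it was not tested. Sall4 kept its 2 counts in that summing.

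**Figure D1:**
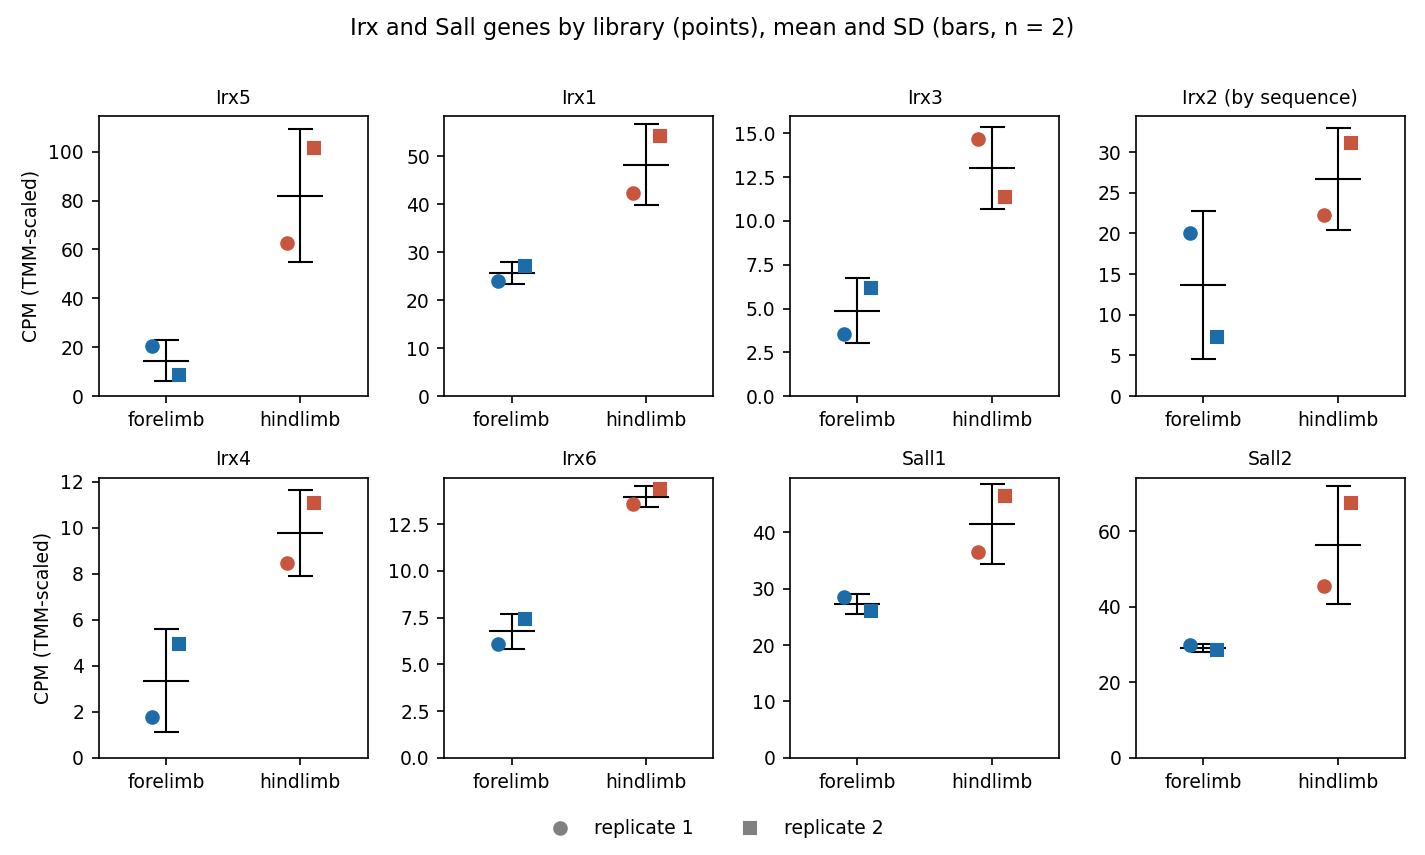
Level of the 8 Irx and Sall genes with enough counts to test in CPM after TMM scaling (vertical axis from 0, a different range in each panel) in the 2 forelimb and 2 hindlimb libraries; points are libraries and bars are the mean and SD of 2. Both hindlimb libraries lie above both forelimb libraries in every panel, with Irx5 at 20.4 and 8.65 against 62.7 and 101 CPM; the Irx2 panel uses tags matched by sequence and a library total of tags that match 1 gene.

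Under its own Ensembl identifier Irx2 (chr13:72628820-72634198, plus strand) gave 0 counts in both forelimb libraries and 0 and 3 counts in the hindlimb libraries, from 1 tag that matches no M21 transcript of Irx2 on the sense strand. The 0 forelimb counts allow up to 0.541 CPM. The tags that do lie in Irx2 transcripts were in the table under another identifier, ENSMUSG00000093659, which M21 does not hold. The Irx2 tags at sites 1 and 2 were listed there. So was the tag shared by Irx2 site 4 and Irx5 site 6, which gave 1 and 1 counts in the forelimb and 24 and 8 in the hindlimb and cannot be assigned to either gene. Summed by the M21 gene that a tag matches alone, Irx2 gave 60 and 9 counts in the forelimb and 76 and 92 counts in the hindlimb. Scaled to the tags that match a single M21 gene, these are 20.1 and 7.24 CPM against 22.3 and 31.2 CPM, or 13.7 ± 9.09 against 26.7 ± 6.27 (SD, n = 2). The log2 fold change was 0.88 ± 0.50 (SE), and it did not pass the edgeR test, with an adjusted p of 0.232. Of the genes in that second summing, 16.7% passed.

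The tags that match Irx2 alone had log2 fold changes of opposite sign. The tag at site 1, in the 3′ UTR in exon 5 (chr13:72634165-72634181), holds 3 G or C bases and gave 58, 8, 30 and 23 counts in forelimb replicates 1 and 2 and hindlimb replicates 1 and 2. Its level overlapped between the limb types, with a log2 fold change of -0.71 and an edgeR adjusted p of 0.522 over the tags. The tag at site 2, in the coding part of exon 3 (chr13:72631880-72631896), holds 13 G or C bases and gave 2, 1, 46 and 69 counts in the same order. It was higher in the hindlimb, with a log2 fold change of 4.57 and an edgeR adjusted p of 0.0231. Of the counts of both tags, the coding tag held 3.33% and 11.1% in the forelimb libraries and 60.5% and 75% in the hindlimb libraries. The ratio of tags differed between limb types in edgeR's test of tag usage for that identifier, with an adjusted p of 0.0273, where 10.6% of the 8694 genes tested passed. That test used 2 tags, those at sites 1 and 2. The tag usage call was lost without forelimb replicate 1, without forelimb replicate 2 and without hindlimb replicate 2, and kept without hindlimb replicate 1. In that order the filter let in 4, 4, 3 and 3 tags of the identifier, some shared with Irx4, Irx5 and Irx6. These fits therefore differ in tags as well as in libraries.

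Irx5 was counted mainly at a pair of coding tags in exon 3, not at site 1. Sites 3 and 4 are numbered on a transcript with 7 CATG sites, and site 1 on another with 6. Their numbers therefore do not count the CATG sites between them and site 1. Site 3 (chr8:92360543-92360559), with 12 G or C bases, held 76.3% of the counts of the gene. It gave 66 and 12 counts in the forelimb and 201 and 315 in the hindlimb, and was called as higher in the hindlimb with a log2 fold change of 2.30 and an edgeR adjusted p of 0.0420. That call was lost with library totals alone (edgeR adjusted p = 0.0572), with the replicate block (0.0963) and without forelimb replicate 2 (0.116). Site 4 (chr8:92360521-92360537), with 14 G or C bases, gave 2 and 1 counts in the forelimb and 63 and 67 in the hindlimb, with a log2 fold change of 4.73 and an edgeR adjusted p of 0.0207. The tags start 22 bases apart in the same exon. The ratio of site 3 to site 4 counts was 33.0 and 12.0 in the forelimb and 3.19 and 4.70 in the hindlimb. The edgeR test of tag usage gave an adjusted p of 0.211 for this gene. Site 1, in the 3′ UTR (chr8:92360942-92360958), has 7 G or C bases and gave 12 and 1 counts in the forelimb and 10 and 7 in the hindlimb. It was not tested for its low counts, and its libraries overlapped between limb types.

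In Irx3 the tag in the 3′ UTR and the tag in the coding region also differed. Site 1 (chr8:91798818-91798834, exon 4, 6 G or C bases) gave 11 and 9 counts in the forelimb and 36 and 18 in the hindlimb, which overlap in CPM. Its log2 fold change was 0.64, with an edgeR adjusted p of 0.621. Site 2 (chr8:91799762-91799778, exon 2, 13 G or C bases) gave 3 and 0 counts in the forelimb and 21 and 27 in the hindlimb. Its log2 fold change was 3.45, with an edgeR adjusted p of 0.0881. The tag in the 3′ UTR held 78.6% and 90.0% of the Irx3 counts in the forelimb libraries and 54.5% and 40.0% in the hindlimb libraries, but tag usage did not pass the edgeR test, with an adjusted p of 0.400.

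Irx1 had no count at site 1 and was counted at coding tags. Site 2 (chr13:71959272-71959288, 11 G or C bases) gave 33 and 15 counts in the forelimb and 88 and 113 in the hindlimb, a log2 fold change of 1.45. Site 3 (chr13:71959350-71959366, 12 G or C bases) gave 20 and 14 counts against 74 and 57, a log2 fold change of 1.20. Site 5 (chr13:71963283-71963299, 13 G or C bases) gave 3 and 0 counts against 13 and 20, a log2 fold change of 2.94. These 3 tags were higher in both hindlimb libraries. Site 4 (chr13:71959381-71959397, 10 G or C bases), the next site upstream of site 3 in exon 2, went the other way, with 38 and 14 counts in the forelimb and 15 and 25 in the hindlimb and a log2 fold change of -0.93. None of the 4 passed the edgeR test over tags, with adjusted p from 0.108 to 0.377.

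Sall1 was counted mainly where the method should count it, as Irx3 was with 54.8% of its counts at site 1. The Sall1 tag at site 1, in the 3′ UTR in exon 4 (chr8:89027346-89027362, 6 G or C bases), held 71.5% of its counts, with 79 and 33 in the forelimb and 127 and 120 in the hindlimb. In CPM this tag was at 20.1 and 20.4 in the forelimb and 28.2 and 30.3 in the hindlimb, with a log2 fold change of 0.53 and an edgeR adjusted p of 0.468. Its coding tags in exon 4 were less abundant. Site 2 (chr8:89028595-89028611, 9 G or C bases) gave 18, 4, 16 and 27 counts over forelimb replicates 1 and 2 and hindlimb replicates 1 and 2, site 3 (chr8:89028727-89028743, 7 G or C bases) gave 15, 4, 11 and 12, and site 4 (chr8:89028793-89028809, 9 G or C bases) gave 0, 1, 5 and 17. The first and second of these coding tags overlapped between the limb types, with log2 fold changes of 0.50 and -0.23. Tag usage of Sall1 gave an edgeR adjusted p of 0.997.

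**Figure D2:**
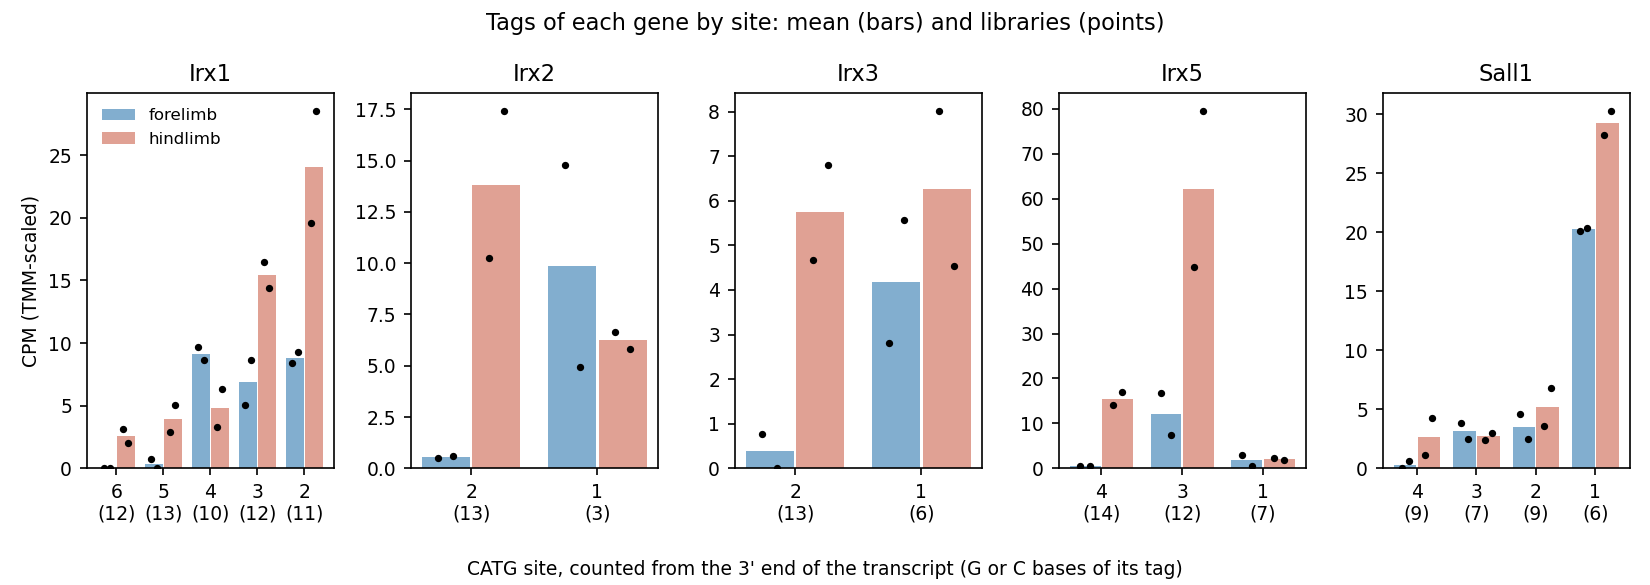
Level in CPM (vertical axis from 0) of each printed tag that matches 1 gene by CATG site, site 1 being nearest the 3′ end of the transcript, with the number of G or C bases in parentheses; bars are the mean of 2 libraries and points the libraries, forelimb in blue and hindlimb in red. In Irx2 the coding tag at site 2 is higher in the hindlimb while the tag at site 1 overlaps, and in Sall1 the tag at site 1 dominates in both limb types; Irx1 site 6 is a tag to which the table gave no gene.

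Over the 13 tested tags of Irx1, Irx2, Irx3, Irx5 and Sall1, the difference between limb types followed the number of G and C bases. The 7 tags with 11 or more were all above 0, with log2 fold changes of 1.20 to 4.73, and all had both hindlimb libraries above both forelimb libraries, as did 30.7% of all tested tags and 78.3% of the 5054 with 11 or more. Of these 7, 3 were called as higher in the hindlimb. Irx1 site 5, Irx2 site 2, Irx3 site 2 and Irx5 site 4 had at most 3 counts in each forelimb library. They passed the low-count filter through their hindlimb counts alone, so their direction was largely set by the filter. The same filter applies to the shares over all tags. Of all 37805 tested tags 6.35% were called, 4.69% as higher in the hindlimb, and of those with 11 or more G or C bases 22.3% were called as higher in the hindlimb. The 6 tags with 10 or fewer ranged from -0.93 to 0.64, 3 of them above 0. None of the 6 was called by edgeR, and 0 had an unadjusted p under 0.05. As a description over these 13 tags, Pearson's r between log2 fold change and G or C number was 0.80 and Spearman's rho 0.86. Tags that passed the filter through the hindlimb alone enter both values. Tags of 1 gene share its transcripts, and all tags share the 4 libraries.

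The same order held in tags of all genes. The median log2 fold change of all tested tags was -1.17 at 3 G or C bases, -0.76 at 6, 0.32 at 9, 2.06 at 12 and 3.15 at 14, and r was 0.57 over the 37805 tags. Read against that background, Irx5 site 3 at 2.30 lay near the median of 2.06 for its class, and Irx5 site 4 at 4.73 lay above its 3.15. Irx2 site 2 at 4.57 lay above its class median of 2.83, and Irx2 site 1 at -0.71 above -1.17. Irx1 site 2 at 1.45 was close to 1.58, Irx1 site 3 at 1.20 was below 2.06, and Irx1 site 4 at -0.93 was below 0.92. Sall1 site 1 at 0.53 was above the -0.76 of its class. The remaining tested member tags also lay above their class medians. Irx3 site 1 was at 0.64 against -0.76, and Irx3 site 2 at 3.45 against 2.83. Irx1 site 5 was at 2.94 against 2.83. Sall1 site 2 was at 0.50 against 0.32, and Sall1 site 3 at -0.23 against -0.44.

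**Figure D3:**
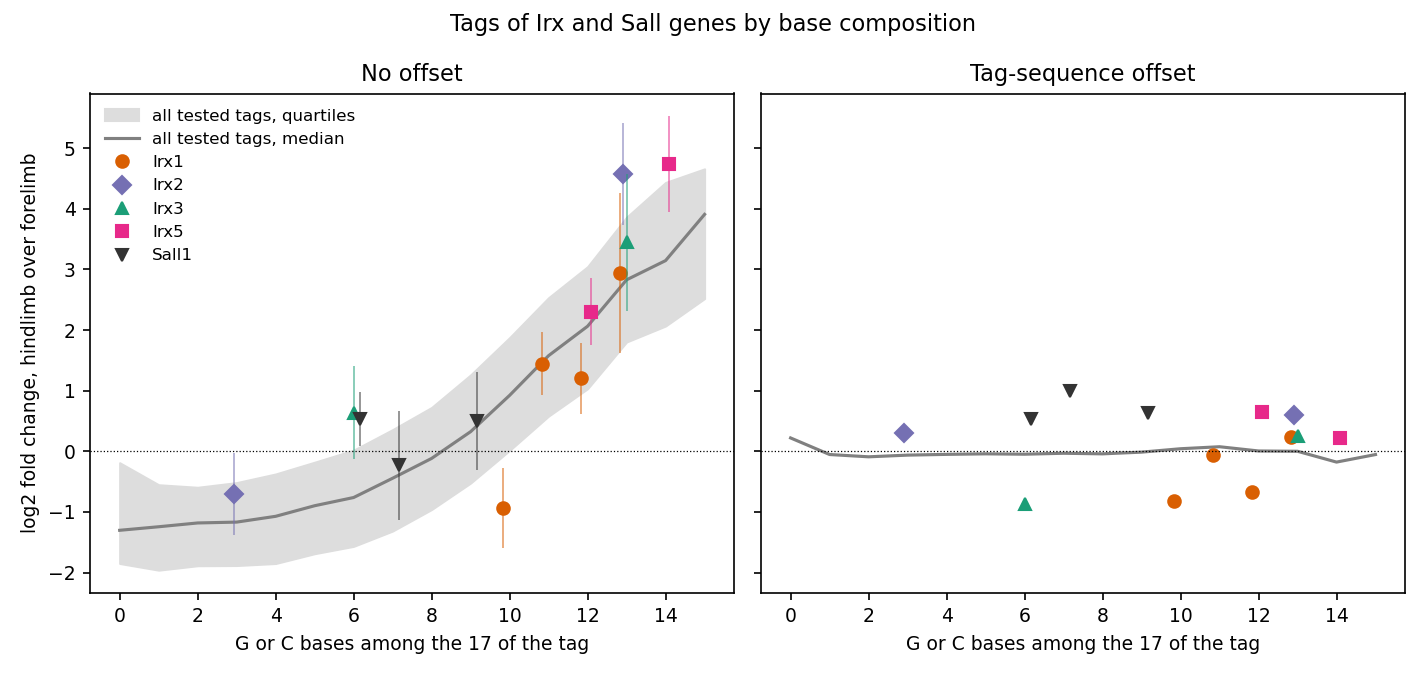
Log2 fold change of hindlimb over forelimb (vertical axis) against the number of G or C bases in the tag (horizontal axis) for 13 tags of 5 genes, without an offset on the left (error bars are SE) and with the tag-sequence offset on the right; the grey line is the median and the grey band the quartiles of all tested tags. On the left the members climb with the grey line from -0.71 at 3 bases to 4.73 at 14, with Irx1 site 4 below it at -0.93, and on the right they lie between -0.86 and 0.99.

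To set each gene against this dependence, an offset, called the tag-sequence offset, was fitted per library from differences between tags of the same gene only, using the bases of the tag and their positions, and the edgeR test was repeated. Only the ratios of tags within genes enter that fit, including those of the tested members. Fitted so, Irx5 had a log2 fold change of 0.23 and an adjusted p of 0.872 in edgeR, and its tags at sites 3 and 4 had 0.64 and 0.21. Irx1 had -0.49, with an edgeR adjusted p of 0.645, and Irx3 -0.64, with 0.794. Sall1 had 0.60, the same as without the offset, and an edgeR adjusted p of 0.569. Irx4 had -0.56, Irx6 0.64 and Sall2 0.47. No member was called by edgeR with the offset, where 0.146% of all tested genes were called. An unadjusted edgeR p under 0.05 was found for 0 of the 4 with the offset and 3 of the 4 without it. These counts are given without a share over all genes. DESeq2, run without the offset, called 1 of the 4, again Irx5.

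At the level of tags, all 13 lay between -0.86 and 0.99 with the offset, and none was called in edgeR, against 0.0317% of all tested tags called. An unadjusted edgeR p under 0.05 was found for 0 of the 13 with the offset and 5 of the 13 without it. A simpler offset on GC percent alone left Irx5 at 0.59 with an edgeR adjusted p of 0.316, Irx3 at 1.05, Irx1 at -0.54 and Sall1 at 0.95, with 6.15% of genes called. No member was called with that offset. Of the 4 tested, 1 had an unadjusted p under 0.05, which was Sall1, with an edgeR p of 0.0104 and an adjusted p of 0.0928. The direction of Irx1 thus turned with both offsets and that of Irx3 with the tag-sequence offset, while Irx5 and Sall1 stayed above 0 with both. The hindlimb level of a gene in these bulk libraries cannot tell apart more cells that express it and more RNA per cell.

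**Figure D4:**
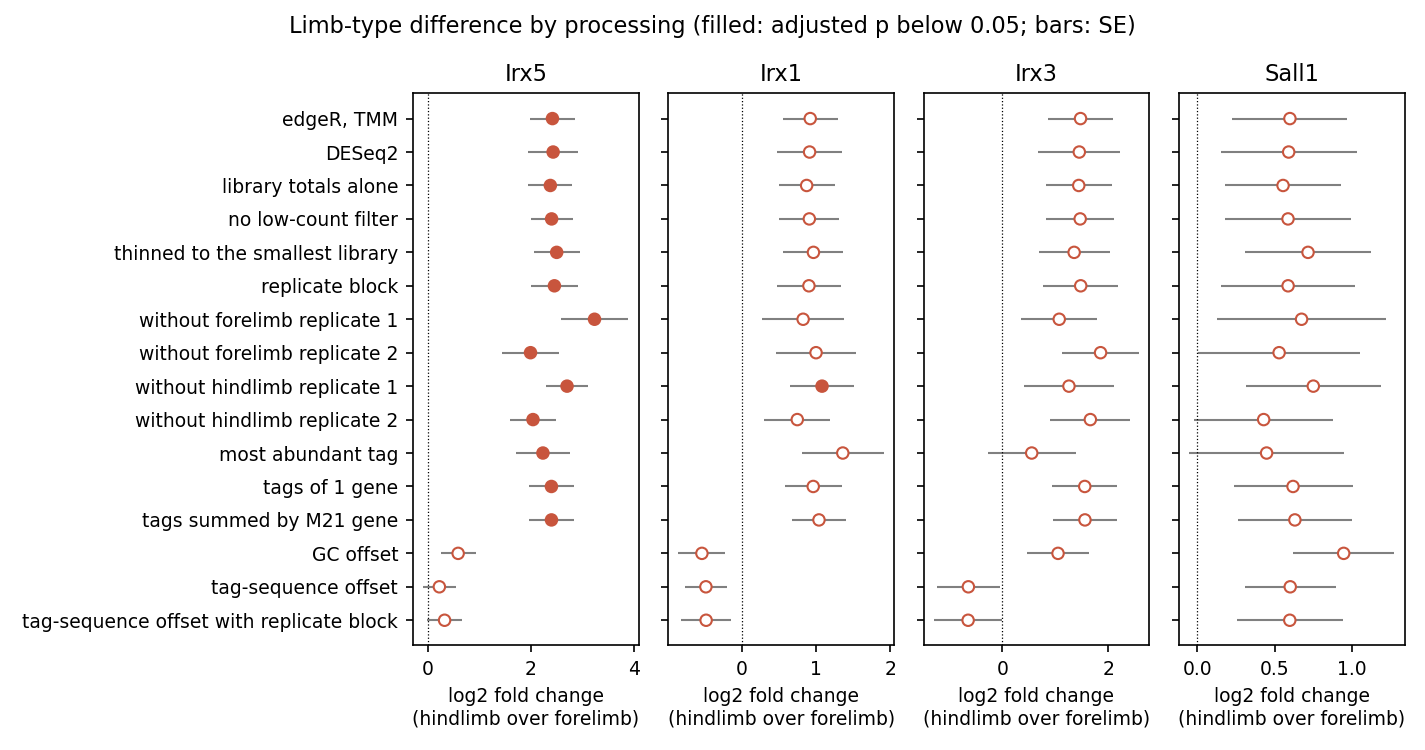
Log2 fold change of hindlimb over forelimb (horizontal axis, a different range in each panel) for Irx5, Irx1, Irx3 and Sall1 under the main analysis (top) and 15 alternatives; bars are SE, filled points have an adjusted p below 0.05. Irx5 is filled at the top and in 12 alternatives and open in the 3 with a GC or tag-sequence offset, at 0.59, 0.23 and 0.33, and Irx1 is filled only without hindlimb replicate 1.

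Genes known to act upstream of or with Irx and Sall genes in the limb were given by a list of 20, of which 17 were tested. Without the offset 3 were higher in the hindlimb and 1 in the forelimb, with a median log2 fold change of 0.25 against -0.029 over all genes. Of all tested genes 9.58% were called as higher in the hindlimb and 7.08% as higher in the forelimb. Pitx1 was higher in the hindlimb, with a log2 fold change of 6.72 ± 0.47 (SE) and an edgeR adjusted p of 3.5e-07. Tbx4, the hindlimb T-box factor, was at 8.66 and 3.09 CPM in the forelimb and 42.9 and 57.2 CPM in the hindlimb, a log2 fold change of 2.95 ± 0.47 (SE) with an edgeR adjusted p of 0.00102. Tbx5 was higher in the forelimb, with a log2 fold change of -3.77 ± 0.69 (SE) and an edgeR adjusted p of 0.00246. When the tag-sequence offset was applied, these 3 were the ones still called, at 3.45 for Pitx1, 2.82 for Tbx4 and -3.91 for Tbx5. With that offset 0.146% of all tested genes were called.

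NuRD, the complex that Sall proteins recruit, was given by 13 subunit genes, of which 12 were tested. No count was found under the name Hdac1, which does not show that the gene was silent. Its tags may be missing or under another identifier, as those of Irx2 were. Mta3, a subunit that varies between forms of the complex, was at 5.60 and 6.18 CPM in the forelimb and 25.8 and 39.8 CPM in the hindlimb. Its log2 fold change was 2.48 ± 0.47 (SE), with an edgeR adjusted p of 0.00300. The tag-sequence offset gave -0.66. Rbbp7, a histone-binding subunit, was higher in the forelimb, at 559 and 510 CPM against 274 and 239 CPM, with a log2 fold change of -1.06 ± 0.31 (SE), an edgeR adjusted p of 0.0257, and -0.16 with the offset. The other 10 did not pass, and 16.7% of all tested genes were called without the offset, so the calls do not set NuRD genes apart. The median log2 fold change of the 12 was 0.35 without and -0.11 with the offset. With the offset edgeR called 0 of the 12, and 1 had an unadjusted p under 0.05.

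Genes beside the Irx clusters gave a comparison with the same chromosome regions. Of 13 on the list 12 were tested, and no count was found under the name Slc6a3. None was called by edgeR or by DESeq2, and 1 had an unadjusted edgeR p under 0.05. Of all tested genes edgeR called 16.7%. Fto, the demethylase gene whose introns are known to hold enhancers of Irx3, was at 160 and 133 CPM in the forelimb and 144 and 132 CPM in the hindlimb. Mmp2, a matrix metalloproteinase gene near Irx6, was at 694 and 720 CPM against 608 and 594 CPM. The edgeR adjusted p was 0.872 for Fto and 0.637 for Mmp2. The median log2 fold change of the 12 was 0.34 without and 0.19 with the tag-sequence offset. Counted as families, the 5 tested Irx genes had a median log2 fold change of 1.48 without and -0.49 with the offset. Without the offset 1 of the 5 was called as higher in the hindlimb, as were 9.58% of all tested genes. The 2 tested Sall genes had a median of 0.77, with none called by edgeR or DESeq2 and 1 at an unadjusted p under 0.05, and 0.54 with the offset.

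Some markers of limb segments and of other cell types in a dissected limb were also called as differing between the limb types. Without the offset, edgeR called 9.58% of all tested genes as higher in the hindlimb and 7.08% as higher in the forelimb. Markers of the upper arm and leg summed to 244 to 281 CPM in the forelimb and 336 to 407 CPM in the hindlimb, with 1 of 7 tested higher in each limb type. Markers of the forearm and shank summed to 238 to 357 CPM against 168 to 206 CPM, with 2 of 5 higher in the forelimb. Markers of the hand and foot plate summed to 290 to 323 CPM against 424 to 493 CPM, with 1 of 9 higher in the hindlimb. Irx and Sall genes are expressed in parts of these segments, so the summed levels are given beside them; their part in the Irx and Sall values was not tested.

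Cartilage markers summed to 4431 to 4678 CPM in the forelimb and 5424 to 6920 CPM in the hindlimb, with 3 of 13 higher in the hindlimb and 1 in the forelimb. Joint interzone markers summed to 552 to 557 CPM against 744 to 756 CPM, with 1 of 12 higher in each. Tendon markers summed to 1200 to 1250 CPM against 682 to 716 CPM, with 3 of 8 higher in the forelimb and 1 in the hindlimb. The hindlimb sums of cartilage and joint markers lay above the forelimb range and those of tendon markers below it. Among single tested genes, 31.4% had both hindlimb libraries above both forelimb libraries, and 31.4% had the reverse. Skeletal muscle markers summed to 2917 to 3269 CPM against 1257 to 1496 CPM, with 6 of 12 higher in the forelimb. No count was found under the name Tnnc1. Epidermis markers summed to 1795 to 1810 CPM against 2368 to 3131 CPM, with 2 of 11 higher in each limb type.

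Endothelium markers summed to 216 to 264 CPM in the forelimb and 250 to 298 CPM in the hindlimb, with 2 of 9 higher in the hindlimb and 1 in the forelimb. Neuron and Schwann cell markers summed to 125 to 164 CPM against 98.3 to 120 CPM, with 1 of 10 higher in the forelimb. Erythroid markers summed to 9759 to 12239 CPM against 7343 to 8615 CPM, with 1 of 5 tested higher in each. No count was found under the names Hba-a1 and Hbb-bt. Over the 101 tested markers of these 11 lists, edgeR called 31 without the offset and 1 with it. Of all tested genes it called 16.7% without the offset and 0.146% with it. With the offset 25 of the markers had an unadjusted edgeR p under 0.05, a count given without a share over all genes. Whether these shifts bear on the Irx and Sall levels was not tested.

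By the distance between centred log2 CPM profiles over the 4 libraries, the tested genes most like Irx5 among 11623 of at least 5 CPM were Twf2 (0.148), Inppl1 (0.156) and Rps7 (0.160). Among those most like Sall1 were Cacfd1 (0.0393) and ENSMUSG00000078441 (0.0498). With 4 libraries such distances describe these samples only.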

How the data were processed

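The authors deposited raw counts, 1 table for 4 DGE-SAGE libraries, with an Ensembl gene or UniGene cluster for 166502 of 733961 tags. Per the submitters' processing notes Bowtie and mm9 were used; the Bowtie version is not given in the sources used. Counts were summed per Ensembl gene, or per cluster where no gene was given. Tags without either were left out of tests and library sizes; the rest held 81.3% to 85.2% of the counts. The files hold no coordinates: positions come from matching tags next to CATG to GENCODE M21 transcripts (GRCm38), which gave the table's gene for 99.0% of the counts of tags that match 1 gene.

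Limb types were compared by edgeR 4.0.16 (R 4.3.3; glmQLFit and glmQLFTest, TMM, filterByExpr, Benjamini-Hochberg at 0.05; SE is the log2 fold change over the square root of F), per gene and per tag, on the whole table, with 2 residual degrees of freedom. Tag usage was tested by diffSpliceDGE in edgeR (Simes). DESeq2 1.42.0 was an alternative. The tag-sequence offset was fitted on 42831 tags of 9913 genes with at least 20 counts, on base and position, first dinucleotide, and quadratic GC and purine number, and the GC offset by lowess (span 0.3). The fits were also run on simulated data, in part with a planted bias linear in the GC number of the tag. The outcome is not given here. Changed genes were drawn there without regard to base composition, so that run cannot show how the offset treats GC-rich genes that differ. Intervals cover counting error only where they are Poisson, since tags carry no molecular identifiers.

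Members, lists, tests and offsets were chosen with earlier results of these data known. Named were the 7 members and Irx4, Irx6 and Sall2; member tags with at least 20 counts; up to 3 called genes of each of 5 gene lists by smallest p, or the 2 most abundant where none was called; and for the most abundant Irx and Sall member the 3 genes of at least 5 CPM with the nearest profile (log2 CPM, prior count 2). The same rule names called genes in the 11 marker lists, which are given here by counts and summed levels only. Summing by M21 gene was added after the Irx2 tags had been seen. One gene that the rule names is not reported here.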

Additional observations from a re-analysis of the deposited data

Results flagged for a closer look

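In addition to the tags given to the members, 5 tags had more counts than the 3 that a count of 0 allows and lie in a transcript of a member, but the table gave them no gene, so they enter no comparison by identifier; they enter only the sums by M21 gene. A tag at Irx1 site 6 (chr13:71963469-71963485, tCCttCCCGCaGCtGGG) had 22 counts in all, 0 and 0 in the forelimb libraries and 14 and 8 in the hindlimb libraries. It has 12 G or C bases, as does the Irx1 tag at site 3. A tag at Sall3 site 14 had 18 counts, 9 and 0 in the forelimb and 5 and 4 in the hindlimb, more than the 1 count in all that the Sall3 identifier has in the table. A tag at Irx5 site 7 had 8 counts, 1 and 0 against 3 and 4. Tags at Sall1 sites 12 and 16 had 6 counts, all in hindlimb replicate 2, and 5 counts, 0 and 1 against 3 and 1.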

How the results depend on the processing

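With 2 libraries per limb type and 80 to 402 Irx5 counts in all but forelimb replicate 2, which had 14, low counts limit every member, and Irx2, Sall3 and Sall4 could not be tested by identifier. The number of genes called, 2285, became 843 with the GC offset, 20 with the tag-sequence offset, 33 with the tag-sequence offset and the replicate block, and 950 to 3900 without single libraries (highest without hindlimb replicate 1 and lowest without forelimb replicate 2, and 1034 when either forelimb replicate 1 or hindlimb replicate 2 was dropped). Of the members, 1 was called, 2 without hindlimb replicate 1 (Irx5 and Irx1), and otherwise 1 without a single library, and 0 with the GC offset, the tag-sequence offset, and the latter with the replicate block. The 2400 called tags became 1120 with library totals alone, 4414 without a filter, 431 with the replicate block, 12 with the tag-sequence offset, and 1984 to 10196 without single libraries, the highest without hindlimb replicate 1. The 918 genes with differing tag usage became 113 with the replicate block and 12 to 2161 without single libraries (lowest without forelimb replicate 1, highest without hindlimb replicate 1, 31 when forelimb replicate 2 was dropped and 141 when hindlimb replicate 2 was).

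The replicate numbers pair nothing that the labels state, and the deviations of same-numbered libraries had a correlation of -0.11. With the replicate block 2148 genes were called, Irx5 had a log2 fold change of 2.46 (edgeR adjusted p = 9.7e-06), and no other member was called; Irx2 tag usage then had an edgeR adjusted p of 0.142. Sall2 was called only without hindlimb replicate 1, at 1.19 (edgeR adjusted p = 0.0186). 

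Direction turned with the tag-sequence offset, without and with the replicate block, for Irx1 (-0.49 and -0.48), Irx3 (-0.64 and -0.64), Irx4 (-0.56 and -0.52), Mta3 (-0.66 and -0.66), Mmp2 (0.17 and 0.17) and Fto (0.090 and 0.095), and with the GC offset for Irx1 (-0.54). Fto, near 0 throughout, was also above 0 without forelimb replicate 1 (0.052, against -0.22 without forelimb replicate 2), by its most abundant tag (0.76) and summed by M21 gene (0.070). Among tags the tag-sequence offset turned Irx1 site 3 (-0.67) and site 2 (-0.062), Irx2 site 1 (0.31), Irx3 site 1 (-0.86), Irx4 site 1 (-0.58) and Sall1 site 3 (0.99). Without single libraries Irx2 site 1 ran from -1.25 to 0.34 and Sall1 site 3 from -0.49 to 0.14, each above 0 only without forelimb replicate 1, and Sall1 site 2 ran from -0.024, without hindlimb replicate 2, to 1.05. Beyond the offsets' own construction the cause was not tested.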
